A study of Homo sapiens with 8 samples.

Results

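The genes described here encode the FOS and JUN subunits of the transcription factor AP-1. They are FOS, FOSB, FOSL1 and FOSL2, and JUN, JUNB and JUND. A row of the array table was taken for a gene when that gene was its only symbol, and where a gene had several such rows the one with the highest mean over the 8 arrays was kept. All 7 genes had a row, out of 22109 genes measured in this way. Total RNA came from MDA-MB-231, an established human breast cancer cell line of triple-negative, mesenchymal type that was derived from a pleural effusion. The groups were control (no treatment, 3 samples), low dose (3 samples) and high dose (2 samples) of a plant preparation. Each sample was hybridised to its own Affymetrix whole-transcript array, after 24 h of treatment. By title and treatment protocol the low and high groups received an ethanol extract of wild yam (Dioscorea villosa) root at 15 and 30 µg/mL, doses described as sublethal. For the same samples the source names give other agents, namely 128 µg/mL of Boswellia serrata extract (low) and 46 µg/mL of 3-O-acetyl-β-boswellic acid (high), so what the treated cells received is unsettled, and the steps between the groups may not be steps of 1 dose series. Controls are labelled as having had no treatment, and the labels name no solvent control. The labels do not say whether replicates were separate cultures, so p-values measure the spread of these samples alone, and that spread may be technical.

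AP-1 is a dimer of basic leucine zipper (bZIP) proteins. JUN proteins can pair with each other or with a FOS protein, whereas FOS proteins need a partner such as a JUN protein to bind DNA. Many AP-1 genes are immediate early genes, transcribed within minutes of a signal from growth factors, cytokines or stress through the MAP kinases, and the messages of several of them are short-lived. FOS and JUN are the founding members. FOSB is a close relative of FOS, and FOSL1 (FRA-1) and FOSL2 (FRA-2) lack the strong activation domain of FOS. FOSL1 is known as the prominent FOS protein of mesenchymal breast cancer cells. JUNB and JUND share the JUN bZIP domain, and JUND is the member generally expressed most steadily.

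The promoters of the 3 genes that differed most from control are shown. That of FOS, which did not pass the test described below, is given for comparison. With all arrays the confidence intervals of FOS were wide, so whether it moved with the JUN genes is unsettled. Each promoter is the 250 bases before the gene's start in RefSeq (GRCh38.p14), written 5′ to 3′ on the gene's strand. Capitals mark TGACG on either strand (CGTCA on the other strand), which is the core of the cyclic AMP response element (CRE, TGACGTCA), and the AP-1-like variant TGACATCA.
JUN (chr1:58784048-58784297, minus strand): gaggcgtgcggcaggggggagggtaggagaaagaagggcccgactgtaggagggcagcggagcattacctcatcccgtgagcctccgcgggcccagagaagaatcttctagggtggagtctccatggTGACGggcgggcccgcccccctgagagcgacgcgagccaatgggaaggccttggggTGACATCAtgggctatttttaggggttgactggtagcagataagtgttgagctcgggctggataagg
JUNB (chr19:12791236-12791485, plus strand): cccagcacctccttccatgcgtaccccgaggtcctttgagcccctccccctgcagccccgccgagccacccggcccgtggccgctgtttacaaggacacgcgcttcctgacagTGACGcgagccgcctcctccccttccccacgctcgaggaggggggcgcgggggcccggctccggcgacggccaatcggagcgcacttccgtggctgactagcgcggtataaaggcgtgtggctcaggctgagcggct
JUND (chr19:18281623-18281872, minus strand): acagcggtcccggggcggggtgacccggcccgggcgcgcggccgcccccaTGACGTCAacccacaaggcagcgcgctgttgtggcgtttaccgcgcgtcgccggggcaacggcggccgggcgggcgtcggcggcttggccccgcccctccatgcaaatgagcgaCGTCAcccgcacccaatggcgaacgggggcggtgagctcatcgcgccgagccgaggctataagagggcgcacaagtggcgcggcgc
FOS (chr14:75278578-75278827, plus strand): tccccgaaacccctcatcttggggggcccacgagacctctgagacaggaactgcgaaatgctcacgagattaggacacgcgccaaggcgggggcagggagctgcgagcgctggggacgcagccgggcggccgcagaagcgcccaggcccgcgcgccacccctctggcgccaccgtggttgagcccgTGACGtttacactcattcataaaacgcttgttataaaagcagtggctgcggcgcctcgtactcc
In JUN the variant TGACATCA lay at -67 to -60 from the start and TGACG at -123 to -119. JUNB held TGACG at -137 to -133. JUND held a whole CRE at -200 to -193, within which TGACG matches on both strands, and a further copy at -86 to -82. FOS held TGACG at -64 to -60. Of the 7 genes 6 had a promoter in the table, FOSL1 being the exception. All 6 held TGACG, and so did 21.2% of all 35116 promoters of this length and 24.2% of the 22198 promoters of protein-coding genes. The consensus AP-1 site TGANTCA was found in none of the 6 windows and in 6.57% of all promoters. The TATA motif TATAA, searched on both strands, was found in FOS, FOSB, JUNB and JUND and in 18.9% of all promoters. The CCAAT box was found in the windows of JUN, JUNB and JUND and in none of the other 3, against 32.0% of all promoters. The GC box GGGCGG was found in FOS, FOSB, FOSL2, JUN and JUND but not in JUNB, and in 42.6% of all promoters. Whether the spread of any motif over these 6 windows bears on the levels of the genes was not tested. The CArG box, which binds SRF, was in none of the 6 windows and in 1.16% of all promoters. Bases more than 250 before the start were not searched, so a site further upstream, in FOS or another gene, would not be seen. A match describes the letters only. No binding was measured.

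The values are log2 expression as deposited, so a difference of 1 is a change of 2-fold. Background was not given with the values, so a low level cannot be told from absence, and levels of different genes are not compared. Of the markers of this line, VIM lay between 8.68 and 9.10 and AXL between 8.55 and 9.67 over the 8 arrays, while SPARC lay between 1.80 and 2.30 and was not clearly present. Of the receptors that define the triple-negative type, ESR1 lay between 1.60 and 2.18 and PGR between 1.17 and 1.65, which is low. No level was obtained for ERBB2, which also defines the type. The epithelial keratin gene KRT19, listed as absent or low in this line, lay between 7.20 and 7.95. The highest levels of EPCAM, CLDN3, CDH1 and GATA3, also on that list, were 5.58, 4.75, 3.33 and 3.31. CLDN4, an epithelial claudin gene on the same list, was higher at the low dose by 1.08 (adjusted p = 0.019). The 75th percentile of log2 expression over all genes was 4.73 on control 3, 4.54 on low 3 and 4.54 on high 2, against 4.80 to 4.94 on the other 5, and these 3 arrays stood apart. The median gene differed from control by -0.04 at the low dose and by -0.12 at the high dose. Over the 6 measured leukocyte markers the mean log2 level was 2.60 to 2.68 in the controls, 2.74 to 2.82 at the low dose and 2.70 to 2.75 at the high dose. None of the 6 was called. The defining leukocyte genes PTPRC and CD3E lay between 0.944 and 1.40 and between 1.09 and 1.55 on all arrays, and CD68, a lysosomal gene also used as a macrophage marker, between 7.68 and 8.46. None of the 4 endothelial markers was called either. Of the 4 measured fibroblast markers COL1A1 was higher at the low dose by 0.76 (adjusted p = 0.0262) and the list's mean log2 level was 2.17 to 2.45 in the controls, 2.28 to 2.43 at the low dose and 2.01 to 2.17 at the high dose. The part of these shifts in the results was not tested. On one line in culture, fewer expressing cells and less RNA per cell cannot be told apart.

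At the low dose all 3 JUN genes rose, and no FOS gene passed the test. JUNB rose 3.56-fold, JUND 3.16-fold and JUN 2.77-fold. The test was limma's moderated linear model over all 8 arrays, with p-values adjusted by the Benjamini-Hochberg method over all 22109 genes, and genes with an adjusted p under 0.05 count as called. By this rule 3 of the 7 AP-1 genes were called, all of them higher, and 1.19% of all genes were called higher in this comparison, 1.81% lower and 3% in all. The median difference over the 7 genes was 0.86, and 0.49 without control 3, against -0.04 over all genes.

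JUNB had log2 levels of 6.18, 6.28 and 5.19 in controls 1, 2 and 3 and of 7.83, 8.02 and 7.29 in the low arrays 1, 2 and 3. The lowest low array lay above the highest control. The difference was 1.83 ± 0.28 (SE; log2 scale; 3 against 3 arrays; 95% confidence interval 1.21 to 2.45; adjusted p = 0.00654). JUND, the member otherwise known for steady expression, had 6.40, 6.50 and 5.80 in the controls and 7.99, 8.20 and 7.49 at the low dose. Its groups were likewise separate, and it rose by 1.66 ± 0.23 (1.15 to 2.18; adjusted p = 0.0042). JUN had 7.75, 7.82 and 7.08 in the controls and 9.04, 9.10 and 8.92 at the low dose. Its low arrays were close together, and it rose by 1.47 ± 0.20 (1.02 to 1.92; adjusted p = 0.00378). In all 3 genes control 3 was the lowest array. Without it the rises were 1.49 for JUNB, 1.45 for JUND and 1.24 for JUN, with adjusted p-values of 0.0033, 0.00423 and 0.00235. The 3 calls held when any 1 of the 8 arrays was left out. They ended when the spread of each gene was estimated from its own arrays alone, without limma's moderation (adjusted p = 0.112 for JUN, 0.132 for JUND and 0.167 for JUNB). Groups of arrays that did not overlap, with the low dose above, were found for 4 of the 7 genes and for 7.03% of all genes, FOSL2 being the fourth. None of the 7 had all low arrays below the controls, which was so for 13% of all genes.

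**Figure D1:**
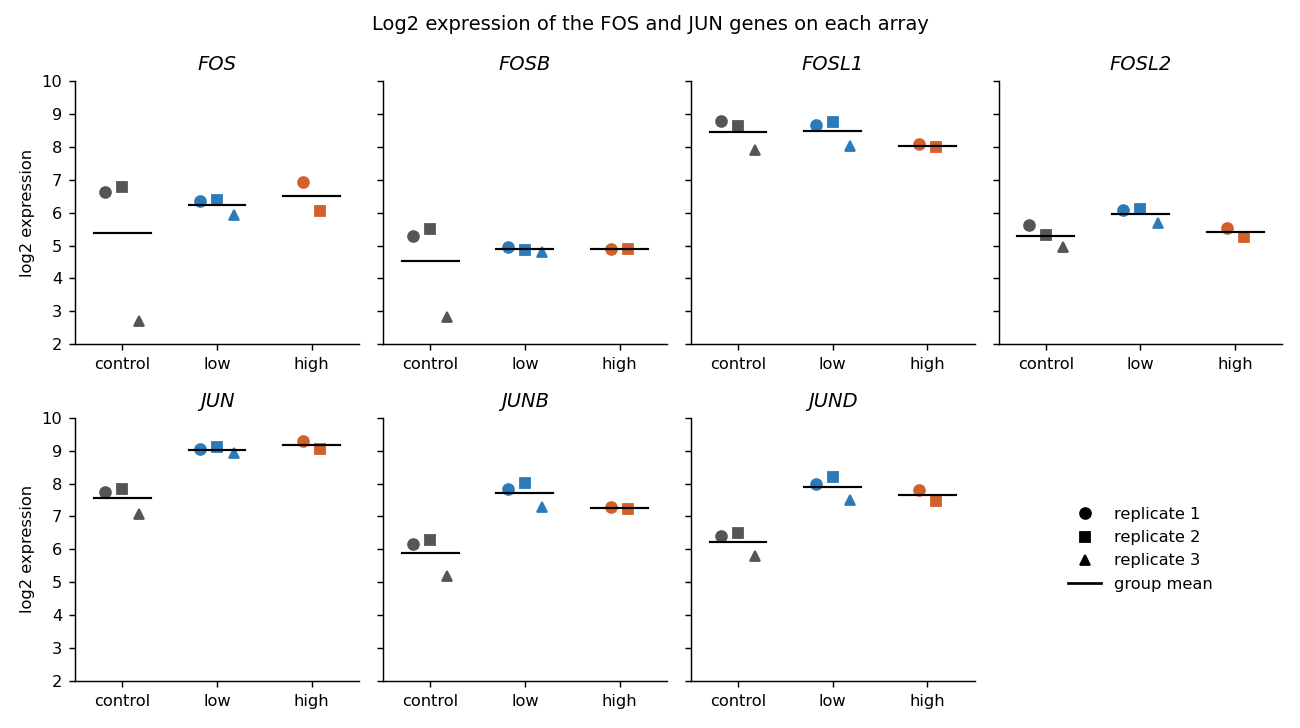
Log2 expression of the 7 AP-1 genes on each array (points; shape gives the replicate number, horizontal bars are group means; y axis log2 expression). For JUN, JUNB and JUND every treated array lies above every control, while FOS and FOSB are at 2.71 and 2.84 in control 3 and within 4.81 to 6.94 on all other arrays.

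Of the JUN genes, JUN and JUND were called at the high dose and JUNB was not. JUN had log2 levels of 9.30 and 9.04 on the 2 high arrays and rose by 1.62 ± 0.23 (SE; 2 against 3 arrays; 95% confidence interval 1.12 to 2.12; adjusted p = 0.0103), a 3.07-fold difference. JUND had 7.80 and 7.47 and rose by 1.40 ± 0.26 (0.83 to 1.98; adjusted p = 0.0382). JUNB had 7.27 and 7.21, above all controls, and its difference of 1.36 ± 0.32 (0.67 to 2.06) did not pass (adjusted p = 0.0832). All 3 genes had high arrays that did not overlap with the controls, which was so with the high dose above for 7.07% of all genes. None of the 7 had all high arrays below the controls, against 22.9% of all genes. In this comparison 0.425% of all genes were called higher, and 0.814% in either direction. The median difference over the 7 AP-1 genes was 1.13, against -0.12 over all genes. Without control 3 the median over the 7 genes was -0.07.

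These calls depended on single arrays. Without control 3 all 3 JUN genes were called, with rises of 1.38 for JUN (adjusted p = 0.00243), 1.19 for JUND (adjusted p = 0.0184) and 1.02 for JUNB (adjusted p = 0.0324). How many of all genes were called in the refits of this paragraph was not counted. A call that JUNB gained in them therefore does not set it apart from other genes. The call of JUN ended without high 1 (1.49, adjusted p = 0.107) and without high 2 (1.75, adjusted p = 0.0783), which leave 1 high array that is assumed to vary like the other groups. The call of JUND ended without control 1, control 2, low 1, low 2, high 1 or high 2, with adjusted p-values of 0.109, 0.0728, 0.0728, 0.0569, 0.189 and 0.188 and differences between 1.24 and 1.57. Scaling moved the call of JUNB too, which passed after quantile normalization (1.55, adjusted p = 0.0184) and after subtraction of array medians (1.46, adjusted p = 0.0287).

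**Figure D2:**
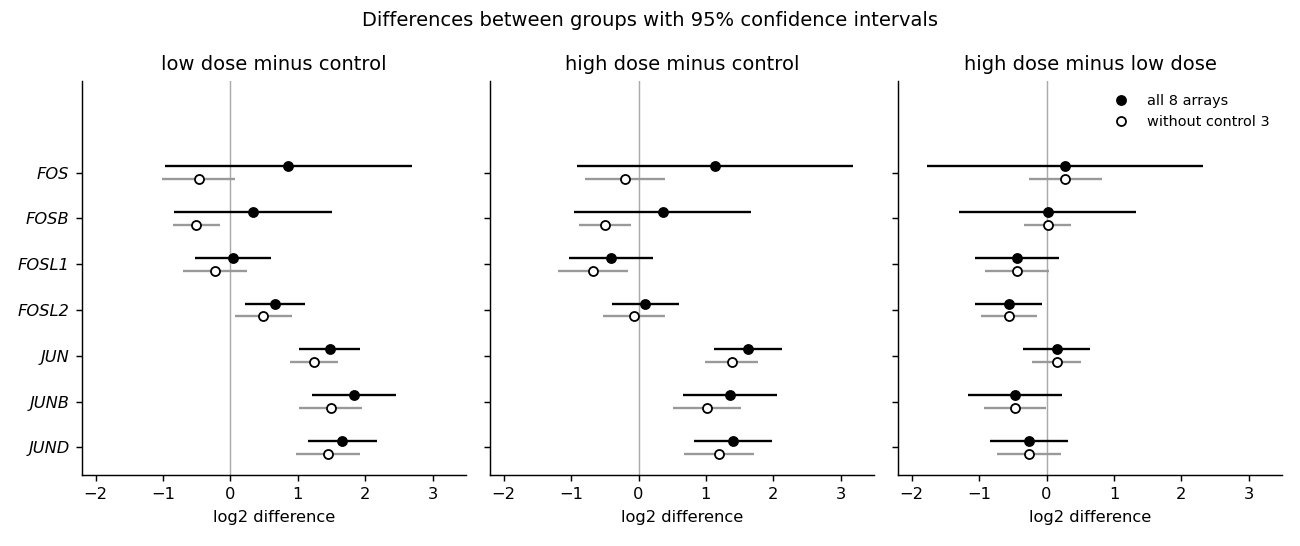
Differences between groups on the log2 scale (x axis) for the 7 AP-1 genes, with 95% confidence intervals (lines), from all 8 arrays (filled) and without control 3 (open). The intervals of JUN, JUNB and JUND lie above 0 against control in both fits, and the wide intervals of FOS and FOSB narrow and their estimates turn negative without control 3.

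FOS and FOSB, the classical immediate early partners of the JUN proteins, were marked by 1 array. FOS had log2 levels of 6.61, 6.79 and 2.71 in controls 1, 2 and 3, of 6.34, 6.40 and 5.94 at the low dose and of 6.94 and 6.06 at the high dose. Control 3 lay 3.99 below the mean of the other controls, a 15.9-fold difference and the largest fall of control 3 among the 22109 genes. The treated arrays lay close to controls 1 and 2, with only high 1 above them. FOSB had 5.30, 5.49 and 2.84 in the controls, 4.97, 4.87 and 4.81 at the low dose and 4.90 and 4.90 at the high dose. Its fall of 2.55 in control 3 was the 7th largest, and all treated arrays lay below controls 1 and 2 and above control 3. The other members fell in control 3 by between 0.52 (FOSL2) and 1.04 (JUNB), while the median gene differed there by -0.06 and 2.43% of all genes were at least 2-fold lower.

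With control 3 the differences of FOS were 0.86 ± 0.83 at the low dose (95% confidence interval -0.98 to 2.69; adjusted p = 0.749) and 1.13 ± 0.93 at the high dose (-0.92 to 3.18; adjusted p = 0.622). These intervals are wide and hold 0. Without control 3 they were -0.47 ± 0.25 (-1.01 to 0.07; adjusted p = 0.429) and -0.20 ± 0.27 (-0.79 to 0.39; adjusted p = 0.753). For FOSB the differences were 0.34 ± 0.53 (-0.83 to 1.51; adjusted p = 0.862) and 0.36 ± 0.60 (-0.95 to 1.67; adjusted p = 0.832), and without control 3 -0.51 ± 0.16 (-0.86 to -0.16; adjusted p = 0.133) and -0.49 ± 0.17 (-0.88 to -0.11; adjusted p = 0.132). Both genes changed sign against control when control 3 was left out, and no difference passed in either fit. With control 3 kept, array weights also gave negative values for FOS at the low dose (-0.043) and for FOSB at both doses (-0.29 and -0.29). FOSB had a second row, with log2 levels of 4.19, 3.63 and 3.15 in the controls, 3.55, 3.33 and 2.90 at the low dose and 3.07 and 3.25 at the high dose. That row showed a smaller drop in control 3, and its treated arrays overlapped with the controls.

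FOSL1 and FOSL2, the FRA proteins, did not pass in any of the 3 comparisons. FOSL1 had log2 levels of 8.80, 8.62 and 7.91 in the controls, 8.65, 8.76 and 8.03 at the low dose and 8.09 and 7.98 at the high dose. The 3 arrays that stood apart, control 3, low 3 and high 2, held its 3 lowest levels, with high 1 next to them. Its differences from control were 0.04 ± 0.25 at the low dose (95% confidence interval -0.52 to 0.59; adjusted p = 0.978) and -0.41 ± 0.28 at the high dose (-1.03 to 0.22; adjusted p = 0.545). Without control 3 they were -0.23 ± 0.22 and -0.67 ± 0.24 (adjusted p = 0.742 and 0.134).

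FOSL2 was the FOS gene whose low arrays all lay above the controls. Its log2 levels were 5.62, 5.32 and 4.95 in the controls, 6.07, 6.11 and 5.69 at the low dose and 5.55 and 5.25 at the high dose. The difference at the low dose was 0.66 ± 0.20 (95% confidence interval 0.21 to 1.11), which did not pass (adjusted p = 0.129). With replicate numbers as a block, a pairing that the labels do not state, FOSL2 passed (0.66 ± 0.14, adjusted p = 0.0325). It also passed after quantile normalization (0.75, adjusted p = 0.014) and with array weights (0.62, adjusted p = 0.0148). In the other 15 of the 18 alternative fits it did not pass. Without control 3 the low-dose difference was 0.49 ± 0.19 (0.07 to 0.91; adjusted p = 0.264). At the high dose the difference was 0.10 ± 0.23 (-0.40 to 0.60; adjusted p = 0.882), with the high arrays within the range of the controls.

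No AP-1 gene passed between the high and the low dose, where 1 of 22109 genes, or 0.00452%, was called. At an unadjusted p under 0.05 limma gave 1915 genes. FOSL2 was lower at the high dose by 0.56 ± 0.23 (95% confidence interval of high minus low -1.06 to -0.06; adjusted p = 0.538), and all its high arrays lay below its low arrays. So did those of JUNB, whose difference was -0.47 ± 0.32 (-1.17 to 0.22; adjusted p = 0.689). High arrays below all low arrays were found for 2 of the 7 genes and for 16.7% of all genes. High arrays above all low arrays were found for 0 of the 7 genes and for 8.77% of all genes. JUND differed by -0.26 ± 0.26 (-0.83 to 0.32) and JUN by 0.15 ± 0.23 (-0.35 to 0.65), with overlapping groups. For JUN the order of group means was control, low and high, and for JUNB, JUND and FOSL2 it was control, high and low, but the treated groups did not pass the test against each other for any of these genes. FOSL1 differed by -0.44 ± 0.28 (-1.07 to 0.18), FOS by 0.28 ± 0.93 (-1.77 to 2.32) and FOSB by 0.02 ± 0.60 (-1.29 to 1.33). The treated groups were compared with the same controls, so their differences from control are not independent.

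The likeness of profiles was measured as the root mean square difference between 2 genes over the 8 arrays, after each gene's own mean was subtracted. Between JUNB and JUND it was 0.16 on the log2 scale, which made JUND the 2nd nearest of 22108 other genes to JUNB, and JUNB the 5th nearest to JUND. JUND was the 4th nearest gene to JUN, at 0.21. By the naming rule the 2 nearest genes to JUNB were KDM6B, which encodes a histone H3 lysine demethylase, at 0.15, and JUND. Those nearest to JUND were KDM6B at 0.14 and NPC1, which encodes a lysosomal cholesterol transporter, at 0.15. Those nearest to JUN were NPC1 at 0.14 and KLF6, a Krüppel-like transcription factor gene, at 0.19. The JUN genes' own profiles had a root mean square of 0.78 to 0.89.

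FOS had FOSB as its nearest gene, at 0.57, and next NOCT, which encodes the circadian protein nocturnin, at 0.65. These profiles share the low value in control 3. In the other direction, FOS was only the 750th nearest of 22108 other genes to FOSB. The own profile of FOSB had a root mean square of 0.76. NOCT had log2 levels of 5.69, 5.70 and 3.65 in the controls and of 5.39 to 6.15 on the treated arrays. The 2 nearest to FOSB were TRIM16, a ubiquitin ligase gene, at 0.33 and NOCT at 0.35. FOSL1 was nearest to PMPCA, a subunit of the mitochondrial processing peptidase, at 0.04, and to the zinc finger gene ZNF70 at 0.07. FOSL2 was nearest to DUSP3, a dual-specificity phosphatase gene, at 0.077 and to S1PR1, a receptor for sphingosine 1-phosphate, at 0.079. The profiles are a description of 8 arrays that share their control and treated states.

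**Figure D3:**
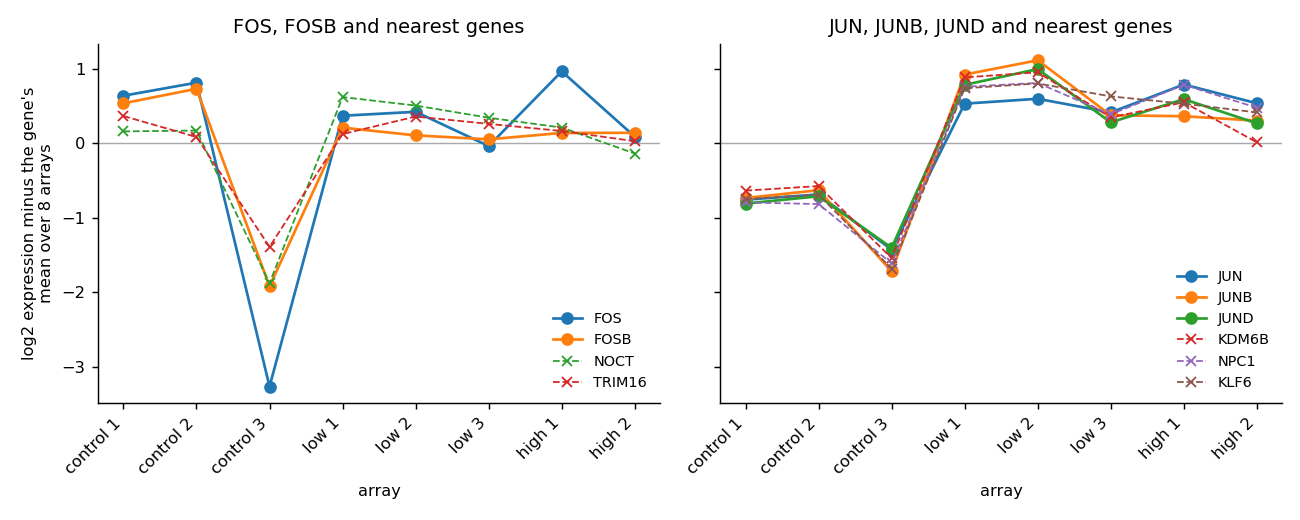
Log2 expression of each gene minus its own mean over the 8 arrays (y axis), by array (x axis), for FOS, FOSB and their nearest genes (left) and JUN, JUNB, JUND and their nearest genes (right). Solid lines are AP-1 genes and dashed lines are nearest genes; lines only join the points of a gene. FOS falls furthest in control 3, and the JUN genes are below their mean on all controls and above it on all treated arrays.

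Other bZIP proteins can take the place of a FOS or JUN subunit. This list and those below were chosen with earlier results of these data known. Their counts beside the shares of all genes are therefore descriptions and no test of a list. Of the 12 measured genes of this list 4 rose and 0 fell at the low dose, where 1.19% of all genes were called higher and 1.81% lower, and the median difference was 0.22. In the high arrays 2 rose and 0 fell, against 0.425% higher and 0.389% lower over all genes (median 0.17). ATF3, the stress-induced factor that pairs with JUN proteins, had log2 levels of 3.41, 3.56 and 2.21 in the controls, 5.79, 5.85 and 5.54 at the low dose and 5.86 and 5.46 at the high dose. All treated arrays lay above all controls. ATF3 rose by 2.66 ± 0.30 (adjusted p = 0.00189) and by 2.60 ± 0.34 (adjusted p = 0.0066). MAFG, a small MAF protein without an activation domain, had 4.87, 4.82 and 4.26 in the controls and 5.88, 5.81 and 5.62 at the low dose. It rose by 1.12 ± 0.19 (adjusted p = 0.00874), and its difference at the high dose was 0.73 ± 0.21 (adjusted p = 0.148). CREB5, a relative of ATF2, had 2.44, 2.68 and 2.61 in the controls, 3.52, 3.62 and 3.05 at the low dose and 3.88 and 3.59 at the high dose. It rose by 0.82 ± 0.18 (adjusted p = 0.0378) and by 1.16 ± 0.21 (adjusted p = 0.031). MAFF, a further small MAF gene, rose by 0.66 ± 0.15 at the low dose (adjusted p = 0.0384), its difference at the high dose being 0.41 ± 0.17 (adjusted p = 0.287).

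Without control 3 the calls of this list at the low dose were ATF3 and MAFG. The adjusted p was then 0.0523 for CREB5 and 0.0728 for MAFF. The low-dose call of CREB5 also ended without control 1, control 2, low 1, low 2, high 1 or high 2 (adjusted p of 0.138, 0.0809, 0.147, 0.172, 0.0541 and 0.0541), and that of MAFF without the same arrays (0.113, 0.101, 0.137, 0.179, 0.0543 and 0.0543). For the high dose the call of ATF3 ended without high 1 (0.0936) and high 2 (0.0776), and that of CREB5 without control 1, control 2, low 1, low 2, high 1 or high 2 (0.125, 0.086, 0.0602, 0.0511, 0.17 and 0.143). The calls of ATF3 and MAFG at the low dose held when any 1 array was left out.

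Of the 21 measured genes of the MAP kinase cascade, which carries signals to AP-1, 0 were called at either dose, with median differences of 0.02 and -0.16. Over all genes 3% and 0.814% were called, so a count of 0 among 21 genes does not set the cascade apart. The largest difference at the low dose was that of MAPK7, which encodes ERK5, at 0.59 ± 0.25 (adjusted p = 0.312). In the high arrays it was that of MAPK12, a p38 kinase gene, at -0.51 ± 0.23 (adjusted p = 0.352). With the replicate block MAPK7 passed at the low dose (adjusted p = 0.043). With array weights MAPK7 passed as higher (adjusted p = 0.0441) and MAP3K1, a kinase gene at the top of the cascade, as lower. These are levels of message, and no kinase activity was measured.

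Of the 12 measured genes of factors known to bind the FOS and JUN promoters 0 were called at either dose, with median differences of -0.03 and -0.30. With 3% and 0.814% of all genes called, a count of 0 among 12 genes does not set this list apart either. SRF, the serum response factor that acts on the FOS promoter, had log2 levels of 7.45, 7.49 and 7.25 in the controls, 6.98, 7.27 and 6.83 at the low dose and 6.63 and 6.42 at the high dose. Its high arrays lay below all controls and below all low arrays. The difference at the high dose was -0.87 ± 0.19 (adjusted p = 0.0636), and it passed as a fall without control 3 (-0.95, adjusted p = 0.0214) and with array weights (-0.93, adjusted p = 0.0181). MEF2D, which acts on the JUN promoter, had the largest difference at the low dose, 0.64 ± 0.22 (adjusted p = 0.186), against -0.05 ± 0.25 at the high dose (adjusted p = 0.949). It passed at the low dose after quantile normalization (0.73, adjusted p = 0.0176) and with array weights (0.64, adjusted p = 0.0171).

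Among 11 measured genes that restrain AP-1, by removing phosphate from MAP kinases or by the decay of messages or proteins, 3 rose and 0 fell at the low dose, against 1.19% higher and 1.81% lower over all genes. The median difference was 0.53, and 0.24 without control 3. At the high dose 2 rose and 0 fell, against 0.425% and 0.389% of all genes, with a median of -0.01. DUSP10, a phosphatase of JNK and p38, had log2 levels of 6.68, 6.57 and 5.24 in the controls, 8.94, 8.90 and 8.66 at the low dose and 8.28 and 8.27 at the high dose. It rose by 2.67 ± 0.31 (adjusted p = 0.00233) and by 2.11 ± 0.35 (adjusted p = 0.0247). DUSP16, which also acts on JNK, had 3.63, 3.73 and 4.0 in the controls, 5.07, 4.88 and 4.85 at the low dose and 5.42 and 4.79 at the high dose. Unlike the AP-1 genes it was highest in control 3 among the controls, and it rose by 1.15 ± 0.19 (adjusted p = 0.00898) and by 1.32 ± 0.21 (adjusted p = 0.0209). ZFP36, whose protein promotes the decay of AU-rich messages, had 6.09, 5.98 and 4.56 in the controls, 7.25, 7.35 and 6.95 at the low dose and 7.31 and 6.96 at the high dose. It rose by 1.64 ± 0.34 at the low dose (adjusted p = 0.0257), and its difference of 1.59 ± 0.38 at the high dose did not pass (adjusted p = 0.0915), though it did without control 3. Single arrays ended the call of ZFP36 at the low dose (without low 1, low 2 or low 3, adjusted p of 0.0923, 0.104 and 0.0619). For the high dose they ended those of DUSP10 (without low 1, high 1 or high 2, adjusted p of 0.0522, 0.146 and 0.204) and DUSP16 (without control 1, control 2 or high 1, adjusted p of 0.103, 0.0817 and 0.146).

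Of 23 measured genes known as AP-1 targets 6 rose and 0 fell at the low dose, against 1.19% higher and 1.81% lower over all genes, with a median difference of 0.49. They were the inducible cyclooxygenase gene PTGS2, the chemokine gene CXCL8, the collagenase gene MMP1 and the cytokine genes IL6, IL11 and LIF. At the high dose 3 rose (PTGS2, CXCL8 and MMP1) and 0 fell, against 0.425% and 0.389% of all genes, and the median was 0.08. This list too was chosen with earlier results of these data known, so its counts are no test of AP-1 targets as a set. MMP1, a classical target with an AP-1 site in its promoter, had log2 levels of 7.05, 6.95 and 6.90 in the controls, 8.37, 8.21 and 8.02 at the low dose and 8.17 and 8.19 at the high dose. Its controls lay close together, control 3 included. It rose by 1.24 ± 0.15 (adjusted p = 0.00255) and by 1.21 ± 0.17 (adjusted p = 0.00947). PTGS2 had 4.80, 4.81 and 3.33 in the controls, 7.60, 7.62 and 7.50 at the low dose and 7.95 and 7.75 at the high dose. CXCL8 had 2.36, 2.30 and 2.16 in the controls, 5.46, 5.49 and 5.29 at the low dose and 5.84 and 5.92 at the high dose. Both genes stood far above the controls on every treated array, by 3.26 ± 0.33 and 3.54 ± 0.37 for PTGS2 (adjusted p = 0.00104 and 0.00217) and by 3.14 ± 0.15 and 3.61 ± 0.16 for CXCL8 (adjusted p = 5.08e-06 and 3.85e-06).

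The 3 cytokine genes of the interleukin 6 family had lower levels on the high arrays than on the low arrays. Most of the target list did likewise, with 19 of 23 differences between the doses negative and 4 positive (median -0.39). All high arrays lay below all low arrays for 13 targets and above them for 3. Over all genes these shares were 16.7% and 8.77%. IL6 had log2 levels of 4.78, 4.89 and 3.69 in the controls, 6.19, 6.0 and 5.97 at the low dose and 5.06 and 5.33 at the high dose. IL11 had 4.48, 5.06 and 4.26 in the controls, 6.24, 6.27 and 5.47 at the low dose and 4.79 and 4.44 at the high dose. LIF had 5.50, 5.45 and 4.79 in the controls, 6.60, 6.64 and 6.29 at the low dose and 6.20 and 5.92 at the high dose. At the low dose IL6 rose by 1.60 ± 0.28 (adjusted p = 0.0103), IL11 by 1.39 ± 0.26 (adjusted p = 0.0151) and LIF by 1.26 ± 0.21 (adjusted p = 0.009). Their high-dose differences from control were 0.75 ± 0.31, 0.02 ± 0.29 and 0.81 ± 0.24, with adjusted p-values of 0.295, 0.985 and 0.155. Between the doses, the difference was -1.37 ± 0.29 for IL11, -0.85 ± 0.31 for IL6 and -0.45 ± 0.24 for LIF, none of which passed (adjusted p = 0.3, 0.491 and 0.622). Without control 3, IL11 and IL6 passed between the doses, as did TIMP1, which encodes an inhibitor of metalloproteinases. How many of all genes passed in that fit was not counted.

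The other 17 targets did not pass at the low dose. Of all 23, 18 had a positive difference there and 12 had low arrays that all lay above the controls, which was so for 7.03% of all genes. Among those that did not pass were VEGFA, an angiogenic growth factor gene, at 0.71 ± 0.18 (adjusted p = 0.0668), and MMP10, a stromelysin gene, at 0.72 ± 0.20 (adjusted p = 0.0966). VEGFA was called higher after quantile normalization and after subtraction of array medians. The targets called as lower at the high dose without control 3 were CCND1, which encodes cyclin D1, the growth factor gene HBEGF, the urokinase gene PLAU and TIMP1, 4 of 23 genes. The share of all genes called lower in that fit was not counted, so the count does not set the targets apart. With all arrays 0 targets were called lower in the unweighted fit without a block, CCND1 and PLAU were with array weights, and CCND1 was with the replicate block. In the unweighted fit of all arrays CCND1 differed by -0.70 ± 0.25 at the high dose (adjusted p = 0.227) and PLAU by -0.60 ± 0.24 (adjusted p = 0.279). The low-dose calls of IL11 ended without control 1, low 1 or low 2 (adjusted p of 0.0606, 0.0735 and 0.0779) and that of LIF without low 2 (0.0513). For the high dose the calls of MMP1 ended without high 1 or high 2 (0.0915 and 0.0994) and that of PTGS2 without high 1 (0.0562). Without limma's moderation of the spread, CXCL8 alone among the called genes of the 5 lists kept its calls at both doses.

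**Figure D4:**
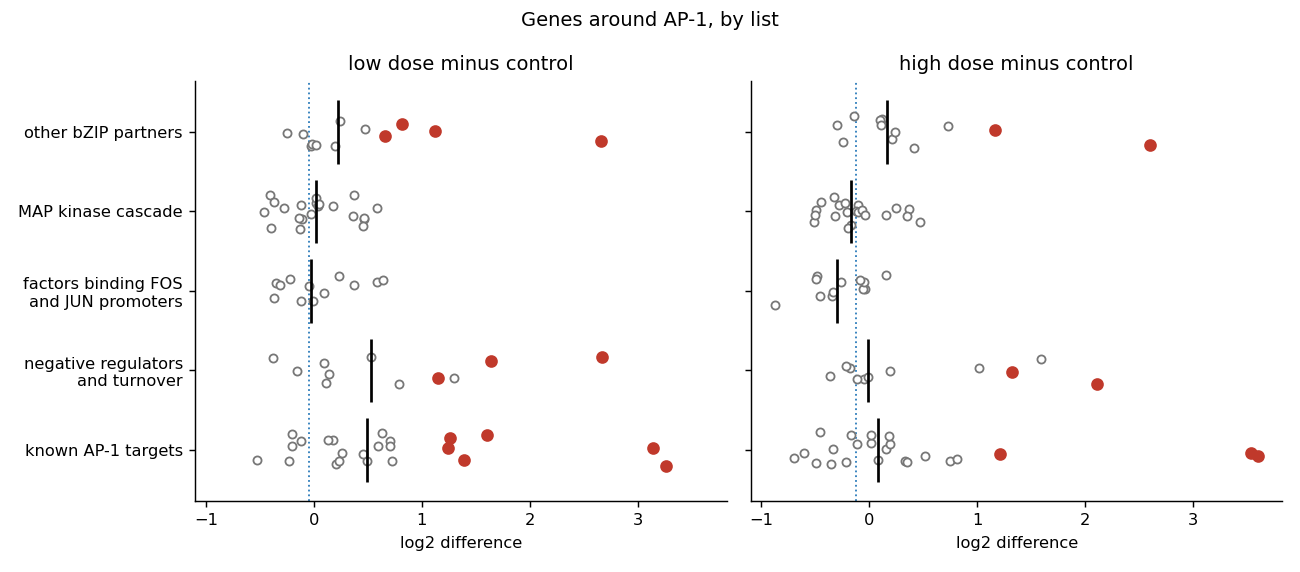
Log2 differences from control (x axis) of the genes in 5 lists around AP-1 at the low dose (left) and the high dose (right). Each point is a gene, red and filled where it was called; black bars are list medians and the dotted line is the median of all 22109 genes. Called genes lie to the right in the lists of other bZIP partners, negative regulators and known targets, and none was called among the MAP kinase cascade or the promoter-binding factors.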

How the data were processed

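Total RNA of 8 samples was measured, 1 array each, and samples were grouped by title. The deposited values are log2 expression per probe set. The authors used the Transcriptome Analysis Console, per the submitters' processing notes. No source used here gives its version or how rows were summarized and normalized. The log base rests on the values, which reach 12.10, above the natural log of a 16-bit scanner's ceiling (11.09). Of 53617 rows, 23558 carried 1 gene symbol in the platform annotation, 2155 several, and 27904 were unnamed here. Keeping 1 row per gene left 22109 genes. The number of arrays limits the precision.

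Group means were fitted to the 8 arrays with limma (version 3.58.1; R 4.3.3; 5 residual and 5.999 prior degrees of freedom), contrasts were moderated with eBayes, and p-values were adjusted by Benjamini-Hochberg over all genes. The fit was tested on simulated data with known changes. It called 48% of 2-fold and 96% of 4-fold changes at the low dose, and 43% and 91% at the high dose. Of the genes it called, 2.04% and 4.29% were unchanged. A change of about 2-fold or less can thus go uncalled. The simulated noise was independent between genes and arrays, and no simulated array stood apart. The simulated shares may therefore not hold for the real arrays. Deviations from the group means of same-numbered control and low arrays correlated at 0.103, 0.153 and 0.203 over genes. Differently numbered arrays also correlated, control 1 with low 2 at 0.122, control 2 with low 1 at 0.065 and low 3 with high 2 at 0.274. Of the same-numbered pairs with a high array, the correlations were 0.094 and -0.049 with the controls and 0.214 and -0.177 with the low arrays. With only 2 high arrays their deviations mirror each other. Any other array thus correlates with high 1 and high 2 equally but with opposite sign. The labels state no pairing, and these correlations do not establish one by number. The replicate block, an alternative fit, took in all 8 arrays.

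The members and lists were chosen with earlier results of these data known. Their counts beside the shares of all genes therefore describe them and do not test them. All 7 members are named. Of each list the called genes are named, at most 6 per comparison, or the gene with the largest difference where none was called. For each member the 2 genes of nearest profile are named, leaving out, by their symbols, non-coding RNAs, pseudogenes, uncharacterised loci, olfactory receptors and antigen receptor segments. CCND1, HBEGF, PLAU, TIMP1, VEGFA, MMP10 and MAP3K1 were named after their values were seen. List genes without a row of their own were not used here.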

Additional observations from a re-analysis of the deposited data

How the results depend on the processing

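Each result was computed again under 18 alternatives, 8 of them leaving out 1 array, for 45 results, which gave 810 values: 683 kept their direction and side of the threshold, 78 lost a call or counted fewer, 21 gained one or counted more, and 28 changed sign. The AP-1 genes called at the low dose numbered 3, or 4 (with FOSL2) after quantile normalization, with array weights and with the replicate block, and 0 without moderation of the spread; leaving out an array gave 3 each time. Those called at the high dose numbered 2, or 3 (with JUNB) after quantile normalization or subtraction of array medians, with the filter on dim genes, array weights or the replicate block, and without control 3, low 3 and high 2, and 0 without moderation and 0 when only the groups compared were fitted; leaving out an array gave 0 to 3. Between the doses 0 were called under every alternative. Shares of all genes called were counted only for the unweighted fit of all 8 arrays without a block. The replicate block was fitted over all 8 arrays, the high arrays included, although the labels state no pairing. FOSL2 at the low dose (adjusted p = 0.0325) and JUNB at the high dose (adjusted p = 0.0160) passed in it, and no JUN gene lost its call. Values of this fit, those of the high dose above all, rest on a pairing by number that the correlations between arrays did not establish.

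Sign changes were limited to FOS, FOSB, FOSL1 and FOSL2, none of which was called in the comparisons concerned, and the cause was not tested. Leaving out 1 array gave log2 differences of -0.47 to 1.57 for FOS, -0.51 to 0.81 for FOSB and -0.23 to 0.26 for FOSL1 at the low dose, with the lowest without control 3. FOSL1 there was also -0.049 without low 1 and -0.10 without low 2. Leaving out 1 array at the high dose gave -0.20 to 1.84 for FOS, -0.49 to 0.83 for FOSB and -0.072 to 0.26 for FOSL2, again with the lowest without control 3, and FOSL2 was -0.047 without high 1. Between the doses the range was -0.16 (without high 1) to 0.71 for FOS and -0.018 (without low 3) to 0.060 for FOSB.

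With array weights FOS was -0.043 and FOSB -0.29 at the low dose, FOSB was -0.29 and FOSL2 -0.039 at the high dose, and FOSB was -0.00066 between the doses. With the replicate block FOSB was -0.086 and FOSL2 -0.052 at the high dose, and between the doses FOS was -0.46 and FOSB -0.43. With the mean of its rows FOSB was -0.029 at the low dose, -0.071 at the high dose and -0.042 between them. Without control 3, low 3 and high 2, FOS was -0.33, FOSB -0.48 and FOSL1 -0.0020 at the low dose, FOSB was -0.49 at the high dose and FOSB was -0.019 between the doses. Refits of the lists without control 3, without all 3 of these arrays and with the replicate block were added after the data were seen. With no measure of background, dim genes limit what the signal can show.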

Other observations

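Apart from non-coding RNAs, which were left out of this ranking, the genes that came next after FOS (-3.99) by the log2 level in control 3 minus the mean of controls 1 and 2 were H2BC14, a histone gene, at -2.78, L1CAM, a cell adhesion gene, at -2.75, TGFBI, a matrix gene, at -2.72, and APCDD1L at -2.61. The treated arrays of FOS lay between 5.94 and 6.94, with 2.71 in control 3. Those of H2BC14 lay between 4.31 and 5.44, on both sides of its 4.55 in control 3 and all below its 7.42 and 7.23 in controls 1 and 2. For L1CAM they ran from 2.61 to 5.34, with 2.24 in control 3, for TGFBI from 3.19 to 5.79, with 2.86, and for APCDD1L from 3.42 to 5.95, with 3.09. The genes were chosen after their values were seen.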
